A study of Mus musculus with 58 samples.

Results

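The proteasome is the protease that degrades most ubiquitin-tagged proteins of the cytosol and nucleus. The genes described here are those whose symbol begins with Psma, Psmb, Psmc, Psmd, Psme, Psmf or Psmg followed by a number, leaving out the immune subunits Psmb8, Psmb9 and Psmb10. This rule found 39 of the 17216 genes with a symbol, each measured by 1 probe set. They comprise 11 genes of the core particle (Psma and Psmb), 18 of the regulatory particle (Psmc and Psmd), 3 activators (Psme), the inhibitor Psmf1 and 4 chaperones of core assembly (Psmg). The other 2, Psmc3ip and Psme3ip1, are binding partners that share a prefix and are no subunits. Of the 39, 36 were brighter than the median gene. The exceptions were Psmc3ip and the tissue forms Psma8, known from testis, and Psmb11, known from thymus. Psma3, Psma4, Psma5, Psmb3, Psmb5, Psmc1, Psmd2 and Psme2 were not analysed here.

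In the core particle, rings of alpha subunits gate a chamber formed by rings of beta subunits, of which Psmb5, Psmb6 and Psmb7 cut peptide bonds. The regulatory particle sits on the end of the core. Its base holds the Psmc ATPases, which unfold substrates, and its lid removes ubiquitin chains. Interferons replace the catalytic beta subunits with Psmb8, Psmb9 and Psmb10 and raise Psme1, which with Psme2 forms an alternative cap that works without ATP. Neurons rely on proteasomes at synapses, and the loss of proteasome activity has long been studied in Alzheimer's disease.

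RNA of the prefrontal cortex (called frontal cortex in the labels and below) and hippocampus was measured on 58 Affymetrix arrays from 30 C57BL/6J mice aged 8 months, of which 28 gave both regions. The transgenic mice (TG) carried the constructs Thy1-APPKM670/671NL and Thy1-PS1L166P, co-injected into C57BL6J oocytes, so that mutant amyloid precursor protein and presenilin are made under the Thy1 promoter, which acts mainly in neurons. The wild-type mice (WT) had no transgene. Each region held 8 arrays of male WT and 8 of male TG mice. Females gave 6 arrays per genotype in the frontal cortex and 7 per genotype in the hippocampus. Values are log2 expression as deposited, so a difference of 1 is a 2-fold change. They compare 1 gene between arrays, not 1 gene with another. Differences carry the standard error (SE) of limma, a linear model fitted over all genes, and were called at a Benjamini-Hochberg adjusted p under 0.05. Mouse numbers of males and females do not mix, so sex and any batch of animals cannot be told apart.

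Array medians lay between 4.73 and 4.85. Thy1, whose promoter drives the transgenes, was between 10.6 and 11.4 on the 29 WT arrays and between 11.9 and 12.4 on 28 TG arrays. The library labelled as the hippocampus of female TG mouse 7 stood at 10.9, within the WT range. The mean of 7 hippocampal marker genes was 7.20 to 7.75 on 29 hippocampus arrays and 5.40 to 5.66 on the 28 frontal cortex arrays. On the hippocampus array of female TG mouse 4 it was 6.13, between the ranges of the regions. Hippocampal TG calls, class medians, lists and correlations are therefore given with and without mice 4 and 7. The mean of 7 choroid plexus markers exceeded 6 on 6 of 15 TG and 2 of 15 WT hippocampus arrays.

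In the TG frontal cortex 15 proteasome genes fell slightly and the activators Psme1 and Psme4 rose. With the sexes averaged (14 TG and 14 WT arrays), these were 15 and 2 of the 39 members, where 18.7% of all 17216 genes fell and 12.9% rose. The median difference was -0.091 for the members and -0.014 for all genes. Proteasome genes are bright, and bright genes fell more often. Among the 8608 brighter genes 35.2% fell, 17.6% rose and the median was -0.062, against 16 members lower and 2 higher of 36. With all arrays set to equal medians, 27 members were lower and 1 higher, and over all genes 4976 were lower and 1660 higher, in place of 3219 and 2227. The interval plot of the 39 members shows that the differences other than that of Psme1 were small, the next largest being a drop of 0.28 for Psmb7.

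**Figure D1:**
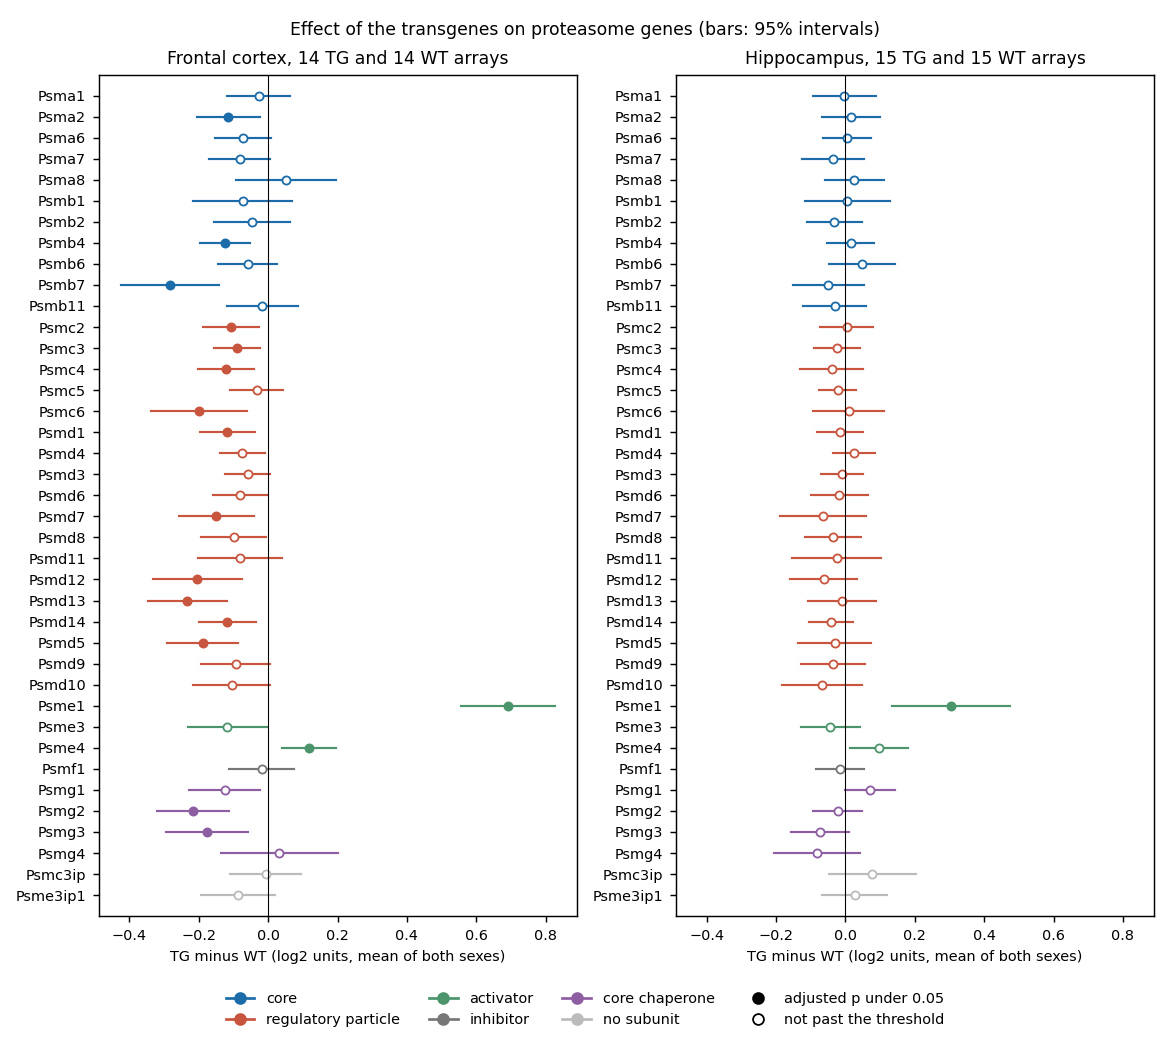
TG minus WT difference of each of the 39 genes in log2 units, averaged over the sexes, in the frontal cortex (left) and hippocampus (right). Points are estimates, bars 95% intervals, colours the classes, and filled points passed an adjusted p under 0.05. In the frontal cortex all 18 regulatory particle genes lie left of 0. Psme1 lies right of 0 in both regions, at 0.69 in the frontal cortex and 0.30 in the hippocampus. All arrays are included, and without the hippocampus arrays of mice 4 and 7 Psme1 did not pass there.

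Among the 11 core genes 3 fell and none rose, with a median difference of -0.072. In the fit of brighter genes only, 3 of 9 core genes fell (33.3%), where 35.2% of all brighter genes did and their median was -0.062. Psmb7, the beta subunit that cuts after basic residues, had a lowest, median and highest value of 8.64, 8.94 and 9.20 on WT arrays and of 8.09, 8.66 and 8.92 on TG arrays. All 14 TG arrays lay below the WT median and 7 below the lowest WT array, so the groups overlapped in part. Psmb7 fell by 0.28 on the log2 scale (SE 0.069, adjusted p = 0.00187), and its linear signal fell by 17.9%. Psmb6, the catalytic subunit that cuts after acidic residues, ran from 9.06 to 9.41 (median 9.24) in WT and from 8.99 to 9.37 (median 9.18) in TG. Its ranges overlapped almost fully, and its difference of -0.059 (SE 0.042, 95% interval -0.15 to 0.027) did not pass (adjusted p = 0.320). Psmb4, a non-catalytic subunit of the beta ring, ran from 9.75 to 10.09 (median 9.88) in WT and from 9.57 to 9.89 (median 9.76) in TG. It fell by 0.13 (SE 0.035, adjusted p = 0.00619), and 7 TG arrays lay below every WT array. Psma2, an alpha ring subunit, fell by 0.11 with an adjusted p of 0.0474 and lost its call in 17 of 28 fits that left out 1 array.

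The regulatory particle had more genes past the test. Of its 18 genes 10 fell, none rose, and all 18 differences were below 0, with a median of -0.11. The fit of brighter genes only also gave 10 of 18 lower (55.6%), where 35.2% of all brighter genes fell. Over all genes 55.3% of differences were below 0. All 18 regulatory particle differences were below 0 under equal medians and quantile normalization too. Quantile normalization ended the calls of Psmd7, Psmd14, Psmd1, Psmc2, Psmc3 and the core gene Psma2. It gave 6 regulatory particle genes lower in place of 10, and 10 members lower and 2 higher in all. Over all genes 3383 were then lower and 2122 higher, in place of 3219 and 2227. The share of brighter genes in that setting was not examined. Among the lid genes, Psmd13 ran from 7.37 to 7.95 (median 7.69) in WT and from 7.14 to 7.67 (median 7.46) in TG. All its TG arrays lay below the WT median, and it fell by 0.23 (SE 0.055, adjusted p = 0.00146). Psmd12, also of the lid, ran from 8.11 to 8.83 (median 8.52) in WT and from 8.12 to 8.63 (median 8.29) in TG. No TG array lay below the lowest WT array, yet 13 of 14 lay below the WT median, and the gene fell by 0.20 (SE 0.063, adjusted p = 0.0119). Psmd7 fell by 0.15 (SE 0.053) and Psmd14, the enzyme that cuts ubiquitin chains from the substrate, by 0.12 (SE 0.040), with adjusted p of 0.0289 and 0.0232.

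In the base, 4 of the 5 ATPase genes fell. Psmc6 ran from 8.27 to 9.05 (median 8.75) in WT and from 8.19 to 8.83 (median 8.55) in TG. It fell by 0.20 (SE 0.068, adjusted p = 0.0239), with 13 of 14 TG arrays below the WT median. Psmc4, Psmc2 and Psmc3 fell by 0.12, 0.11 and 0.091. Psmc5 differed by -0.034 (SE 0.037, 95% interval -0.11 to 0.043) and did not pass. The base scaffold Psmd1 fell by 0.12 (SE 0.039), and the ubiquitin receptor Psmd4 differed by -0.075 (adjusted p = 0.0787). Psmd5, a chaperone that holds ATPases of the base before assembly, ran from 7.42 to 7.84 (median 7.65) in WT and from 7.28 to 7.69 (median 7.45) in TG. It fell by 0.19 (SE 0.050, adjusted p = 0.00379), and 6 TG arrays lay below every WT array. The other base chaperones, Psmd9 and Psmd10, differed by -0.093 and -0.10 and did not pass.

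Of the 4 chaperones that build the core, Psmg2 and Psmg3 fell. Psmg2, which pairs with Psmg1 to assemble alpha rings, ran from 6.59 to 7.11 (median 6.95) in WT and from 6.38 to 6.91 (median 6.75) in TG. All 14 TG arrays lay below the WT median, and it fell by 0.22 (SE 0.051, adjusted p = 0.00133). Psmg3 fell by 0.18 (SE 0.058, adjusted p = 0.0189). Psmg1 differed by -0.13 (SE 0.050, adjusted p = 0.0560) and Psmg4 by 0.032 (SE 0.082), neither past the test. The inhibitor Psmf1 differed by -0.019 (SE 0.046), and its 95% interval ran from -0.11 to 0.075.

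**Figure D2:**
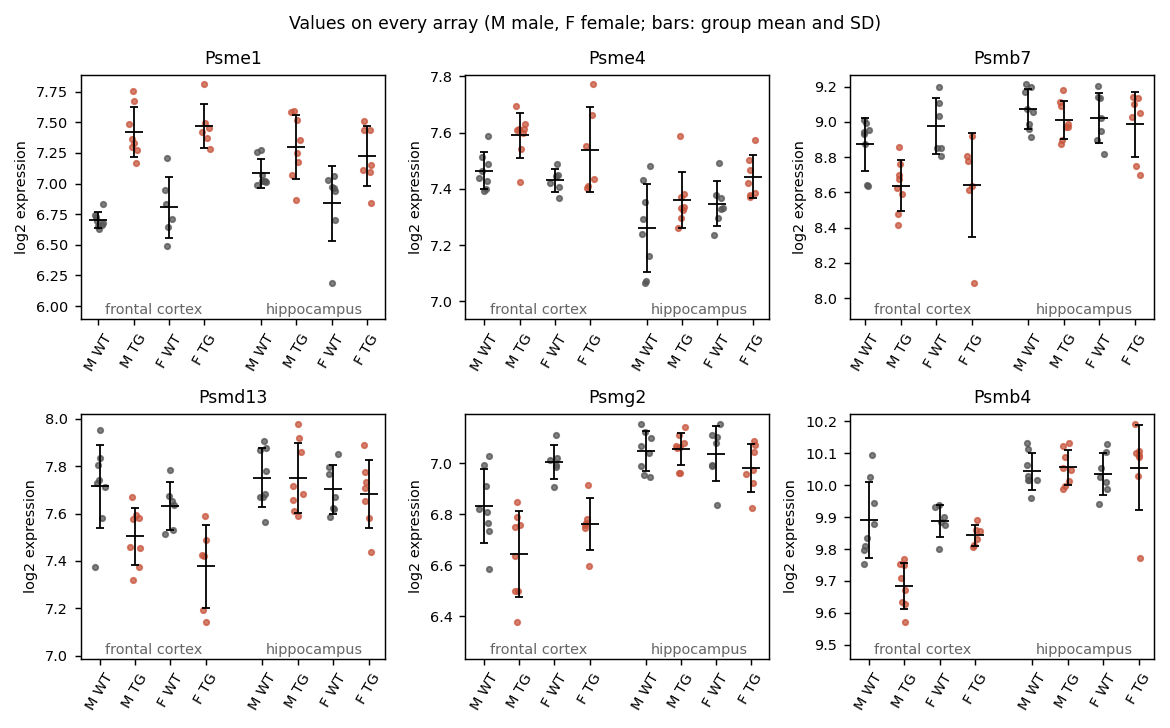
Log2 expression of 6 genes on every array, by region, sex (M male, F female) and genotype (grey WT, red TG). Bars give the group mean and SD. In the frontal cortex Psme1 does not overlap between genotypes within a sex, while the hippocampal ranges overlap. Psmb4 is lower in male TG frontal cortex and differs by -0.045 in females.

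Of the 3 activators Psme1 and Psme4 rose. Psme1, a subunit of the interferon-induced cap, was at 6.63 to 6.83 (median 6.68) in male WT and at 7.17 to 7.75 (median 7.35) in male TG frontal cortex. In females it was at 6.49 to 7.21 (median 6.77) in WT and at 7.28 to 7.81 (median 7.44) in TG. Within each sex no TG array overlapped WT. Psme1 rose by 0.69 (SE 0.067, adjusted p = 2.08e-09), a linear rise of 61.5%. Psme4, a single-chain activator linked to histone breakdown and DNA repair, ran from 7.37 to 7.59 (median 7.44) in WT and from 7.40 to 7.77 (median 7.60) in TG. It rose by 0.12 (SE 0.038, adjusted p = 0.0174), with 8 of 14 TG arrays above every WT array, and lost its call under equal medians. Psme3, the nuclear activator, differed by -0.12 (SE 0.056) and did not pass (adjusted p = 0.112).

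The immune subunits, which the rule left out, stood beside Psme1. Psmb8, which takes the place of Psmb5, was at 3.81 to 4.60 (median 4.36) in WT and at 5.38 to 7.37 (median 6.37) in TG frontal cortex, without overlap. It rose by 2.09 (SE 0.13). Psmb9, the counterpart of Psmb6, rose by 1.07 (SE 0.099), and Psmb10, the counterpart of Psmb7, rose by 0.25 (SE 0.064, adjusted p = 0.00276). For Psmb7 and Psmb10 the constitutive gene was thus lower and the immune gene higher, whereas Psmb6 did not pass beside the rise of Psmb9.

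Promoter windows of 300 bases, from 250 before to 50 after the transcript start, were found for 31 of the 39 members in RefSeq (GRCm38.p6). They were searched on both strands for the antioxidant response element TGACNNNGC, which binds the transcription factors Nfe2l1 and Nfe2l2 that induce proteasome genes. It stood in 5 of 31 members (16.1%) and in 12.4% of all 32851 windows. The interferon-stimulated response element, searched as GAAA, any 2 bases and GAAA, stood in 4 of 31 (12.9%) and in 3.44% of all windows. A CCAAT box was found in 12 of 31 members (38.7%, against 37.4%) and a TATAAA box in 3 (9.68%, against 13.6%). Shown are stretches of 30 or 100 bases from windows of members whose values are given above, with the matched bases in capitals. Each sequence runs 5′ to 3′ along the gene's own strand, which is the plus strand for all those shown. Psmd4, Psmd9 and Psmg4, whose windows also hold an antioxidant or interferon element, are not shown. Psmb6 lies at chr11:70525327-70525356, Psmc6 at chr14:45329574-45329673, Psmd12 at chr11:107479278-107479377, Psme4 at chr11:30771758-30771787 and Psme1 at chr14:55578493-55578522. The first 4 hold the antioxidant element, as TGACNNNGC in Psmb6 and in reverse complement in the others, and Psme1 holds the interferon element in reverse complement.
Psmb6: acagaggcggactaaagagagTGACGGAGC
Psmc6: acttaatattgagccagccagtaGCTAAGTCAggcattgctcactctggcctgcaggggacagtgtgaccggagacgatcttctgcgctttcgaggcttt
Psmd12: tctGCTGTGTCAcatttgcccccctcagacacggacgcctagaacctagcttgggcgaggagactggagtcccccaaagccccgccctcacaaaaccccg
Psme4: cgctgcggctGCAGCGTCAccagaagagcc
Psme1: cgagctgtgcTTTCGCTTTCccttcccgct

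Genes with an antioxidant element moved in different ways in the TG frontal cortex. Psmc6 and Psmd12 fell, Psme4 rose, and Psmb6 and Psmd9 did not pass. Of the genes with an interferon element, Psme1 rose, while Psmd4, Psmd9 and Psmg4 did not pass. The window of Psmd13 held neither element.

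To compare classes array by array, each gene was expressed as its deviation from its WT mean in the same region and averaged over the class. That reference was the mean of the male and female WT group means, so differences between the sexes remain in the values. The regulatory particle was below 0 on all 14 TG frontal cortex arrays, from -0.23 to -0.028 with a median of -0.11, against -0.17 to 0.084 on WT arrays. The core was below 0 on 11 of 14 TG arrays, from -0.22 to 0.066 (median -0.10), and the core chaperones on all 14, from -0.27 to -0.0078. The core value averaged all 11 core genes, the dim Psma8 and Psmb11 included. The activators were above 0 on all 14, from 0.12 to 0.40, and did not overlap WT arrays (-0.072 to 0.086). This class value rested on Psme1. The mean of Psme3 and Psme4 alone ran from -0.15 to 0.085 on TG and from -0.10 to 0.11 on WT arrays, which overlapped. The regulatory particle and core overlapped between the genotypes. The lowest WT regulatory particle value, -0.17, belonged to male mouse 42.

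**Figure D3:**
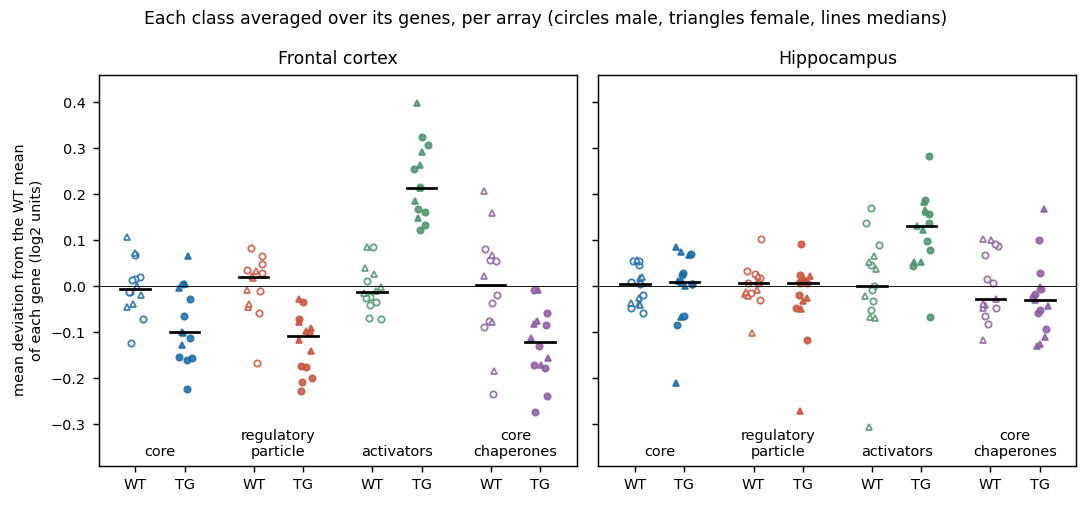
Mean deviation of each class from the WT mean of its genes in log2 units, per array, by genotype and region. Circles are males, triangles females, lines medians. In the frontal cortex the TG regulatory particle and core chaperone values all lie below 0 and the activator values all above, whereas hippocampal core and regulatory particle values spread around 0.

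Cell type markers moved in the same samples, and the arrays hold dissected tissue, in which fewer cells of a type and less RNA per cell cannot be told apart. Of 7 neuron markers 5 fell in the TG frontal cortex, with a median of -0.14, and their mean per array was 10.62 to 10.80 in WT and 10.41 to 10.64 in TG. All 7 microglia markers rose (median 1.65), from array means of 6.34 to 6.78 in WT to 7.79 to 8.91 in TG, and all 7 astrocyte markers rose (median 0.48). Of the oligodendrocyte markers 3 of 5 rose and of the endothelial ones 3 of 6. With the neuron marker mean as a covariate, only Psme1 kept its call among the 39 members (0.45, adjusted p = 0.00698). The regulatory particle median was then -0.10 with all 18 genes still below 0. Over all genes 702 were then called, in place of 3219 lower and 2227 higher. The median of all 39 members was -0.098, in place of -0.091 without the covariate. Because the neuron marker mean itself differs between the genotypes, this fit cannot separate cell composition from genotype. The part of cell composition in the proteasome differences was not tested.

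The series asks about the sexes, and each was compared with its own controls. In the male frontal cortex 11 members fell and 1 rose, where 11.7% of all genes fell and 8.80% rose. In the female frontal cortex 3 fell and 1 rose, where 10.2% fell and 8.75% rose. Among the 8608 brighter genes 2054 fell and 1141 rose in males, against 15 and 2 of 36 members. In females 1885 of them fell and 1013 rose, against 3 and 1 of 36 members. The medians of these members and of all brighter genes were -0.13 and -0.054 in males. In females they were close, at -0.071 and -0.067. Psme1 rose in both, by 0.72 (SE 0.088, adjusted p = 4.60e-07) in males and by 0.67 (SE 0.10, adjusted p = 1.57e-05) in females. Psmg2 and Psmd13 fell in both sexes. In males both calls were lost under quantile normalization and when only the 2 groups compared were fitted. In females Psmd13 lost its call under quantile normalization. Psmb7 fell by 0.33 (SE 0.10, adjusted p = 0.0238) in females, and in males its difference was -0.23 and did not pass. The other falls in males were Psma2, Psmb4, Psmc6, Psmd1, Psmd4, Psmd5, Psmd10, Psmd12 and Psmd14. Under quantile normalization the male count became 4 lower (Psmb4, Psmd1, Psmd5 and Psmd12) and 2 higher, while all genes stood at 1959 lower and 1521 higher in place of 2019 and 1515. Under equal medians the female count became 7 lower and 1 higher, with 2804 of all genes lower and 1190 higher in place of 1750 and 1507.

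The difference between the sexes was tested itself and passed for no member and for no gene in either region with limma (0% of 17216). At an unadjusted p under 0.05 it was found for 1130 genes in the frontal cortex and 842 in the hippocampus, 1 member in each. In the frontal cortex that member was Psmb4, at 9.75 to 10.09 (median 9.86) in male WT and 9.57 to 9.77 (median 9.69) in male TG, but at 9.80 to 9.94 (median 9.89) in female WT and 9.81 to 9.89 (median 9.84) in female TG. It fell by 0.21 (SE 0.046, adjusted p = 0.00167) in males and differed by -0.045 in females. The female minus male difference of 0.16 had a 95% interval of 0.017 to 0.31 and an adjusted p of 0.738. For Psme1 the interval of that difference was -0.32 to 0.22, and for Psmb7 -0.38 to 0.18. In the hippocampus the member was Psmd14, at -0.15 (SE 0.061, adjusted p = 0.989), and at -0.12 without mice 4 and 7, also not past the test. Between WT females and WT males no member passed in either region (limma, 0.157% of all genes in the frontal cortex and 1.02% in the hippocampus). At an unadjusted p under 0.05 there were 1 and 3 members, of which Psmd8 in the hippocampus had the smallest p, at -0.17 in females against males (SE 0.057, adjusted p = 0.122).

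In the hippocampus Psme1 rose and no member fell, where 3.94% of all genes rose and 2.70% fell. Under equal medians these shares over all genes stood at 576 genes higher and 1157 lower, in place of 678 and 465. The members' median was -0.017 and that of all genes -0.0091. Psme1 ran from 6.19 to 7.27 (median 7.02) on 15 WT arrays and from 6.84 to 7.59 (median 7.25) on 15 TG arrays. The groups overlapped, with 7 TG arrays above every WT array and 13 above the WT median. It rose by 0.30 (SE 0.083, adjusted p = 0.0222). Without the hippocampus arrays of mice 4 and 7 the difference was 0.25 and no longer passed (adjusted p = 0.0699), and no member was then called. With the choroid plexus mean as a covariate it was 0.24 (adjusted p = 0.0994). Psme4 differed by 0.098 (SE 0.041, adjusted p = 0.165), and by 0.10 without these mice.

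No core, regulatory particle or chaperone gene passed in the hippocampus. The core median was 0.0054, with 6 of 11 genes above 0, and the regulatory particle median was -0.025, with 15 of 18 below 0. Without mice 4 and 7 these medians were 0.023 and -0.015, and 11 of 18 regulatory particle genes lay below 0. Under equal medians the core median was -0.026, with 10 of 11 genes below 0, and all 18 regulatory particle genes lay below 0. The median of all genes was then -0.040 and that of the 39 members -0.048, so this setting lowered genes in general. Psmb7 ran from 8.82 to 9.21 (median 9.06) in WT and from 8.70 to 9.18 (median 9.03) in TG and differed by -0.049 (95% interval -0.15 to 0.053). Psmd13 ran from 7.56 to 7.91 (median 7.68) in WT and from 7.44 to 7.98 (median 7.71) in TG and differed by -0.010 (95% interval -0.11 to 0.088). For both genes the TG range covered most of the WT range. The differences without mice 4 and 7 were -0.024 and 0.0092, and neither passed. Psmb8 rose by 1.02 (SE 0.19) and Psmb9 by 0.39 (SE 0.12), while Psmb10 differed by 0.18 and did not pass. Without mice 4 and 7 they differed by 0.97, 0.34 and 0.16, with the same calls. All 7 microglia markers rose, with a median of 0.81 (0.82 without these mice), and 1 of 7 neuron markers fell (0 without them).

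Taken by sex, no member passed in the hippocampus with limma. In males 1.30% and in females 2.47% of all genes passed, and at an unadjusted p under 0.05 there were 0 and 3 members. Psme1 differed by 0.22 (SE 0.11, adjusted p = 0.411) in males and by 0.39 (SE 0.12, adjusted p = 0.0868) in females. In females it passed when all 58 arrays were fitted with the mouse as a random block, with an adjusted p of 0.0380. Without mice 4 and 7, both female, it was 0.29 (adjusted p = 0.296, no block), and the median of the members in females went from -0.016 to 0.019.

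Whether the TG effect differed between the regions was tested in a fit of all 58 arrays. Psme1 rose less in the hippocampus, by -0.39 (SE 0.11, adjusted p = 0.0217). The effects on Psmg1, Psmg2 and Psmb4 were higher in the hippocampus than in the frontal cortex, by 0.20 (SE 0.060, adjusted p = 0.0331), 0.19 (SE 0.060, adjusted p = 0.0360) and 0.14 (SE 0.046, adjusted p = 0.0492). The call of Psmb4 was lost in 39 of 58 fits that left out 1 array, that of Psmg2 in 11 and that of Psmg1 in 5. Over all genes 2.84% were higher and 4.05% lower. Psmd13 missed the threshold at 0.22 (SE 0.073, adjusted p = 0.0513), as did Psmb7 at 0.24 (SE 0.086, adjusted p = 0.0849). All 18 regulatory particle genes lay above 0 (17 under quantile normalization), with a median of 0.079, against 0.0097 for all genes and 0.032 for the brighter genes. The members' median was 0.077.

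These calls depended on the arrays and on how the regions of a mouse were paired. With the mouse as a fixed block, over the mice with both regions, 2 members passed, Psme1 at -0.47 and Psmb7 at 0.23 (adjusted p = 0.0484). Over all genes that fit called 544 higher and 816 lower, in place of 489 and 697. Psmg1, Psmg2 and Psmb4 then had adjusted p of 0.0539, 0.0520 and 0.125. Without the hippocampus arrays of mice 4 and 7 there were 7 calls, 6 higher and 1 lower, and Psmd13 and Psmb7 were among them (0.24 and 0.26). Calls over all genes rose too, from 489 higher and 697 lower to 959 and 924. Quantile normalization left 1 call, that of Psme1, and no higher one, with 410 of all genes higher and 686 lower.

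Between the regions of WT mice, more members were higher in the hippocampus than lower. Of the 39, 14 were higher there and 3 lower, where 19.6% of all genes were higher and 19.2% lower. The members' median difference was 0.074 and that of all genes -0.012. Among brighter genes 30.9% were higher and 27.4% lower, against 13 members higher and 3 lower of 36. In the core 5 of 11 were higher and none lower (median 0.12), and in the regulatory particle 5 of 18 were higher and 1 lower (median 0.063). Psmg4, an assembly chaperone, ran from 5.63 to 6.56 (median 6.29) in the frontal cortex and from 6.48 to 7.05 (median 6.62) in the hippocampus. It was 0.45 higher (SE 0.073, adjusted p = 7.14e-07). Psmb2, of the beta ring, ran from 8.60 to 9.15 (median 8.77) and from 8.89 to 9.26 (median 9.13) and was 0.30 higher (SE 0.046, adjusted p = 2.37e-07). Psmd6, of the lid, was 0.28 higher (SE 0.039), Psmc3ip 0.26 (SE 0.057), Psme1 0.21 (SE 0.078) and Psmb1 0.18 (SE 0.066).

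Psmc5 and Psmc2, both ATPases of the base, passed in opposite directions. Psmc5 ran from 10.10 to 10.43 (median 10.28) in the WT frontal cortex and from 9.88 to 10.08 (median 9.96) in the WT hippocampus, so that the regions did not overlap. It was lower in the hippocampus, at -0.31 (SE 0.030, adjusted p = 7.48e-13), whereas Psmc2 was 0.15 higher and Psmc3, Psmc4 and Psmc6 did not pass. Psme4 was lower at -0.14 (SE 0.039, adjusted p = 0.00225) and Psmf1 at -0.13 (SE 0.039, adjusted p = 0.00732). All 5 oligodendrocyte markers were higher in the WT hippocampus (median 1.23) and 5 of 7 neuron markers lower (median -0.29). The part of these in the differences was not tested.

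**Figure D4:**
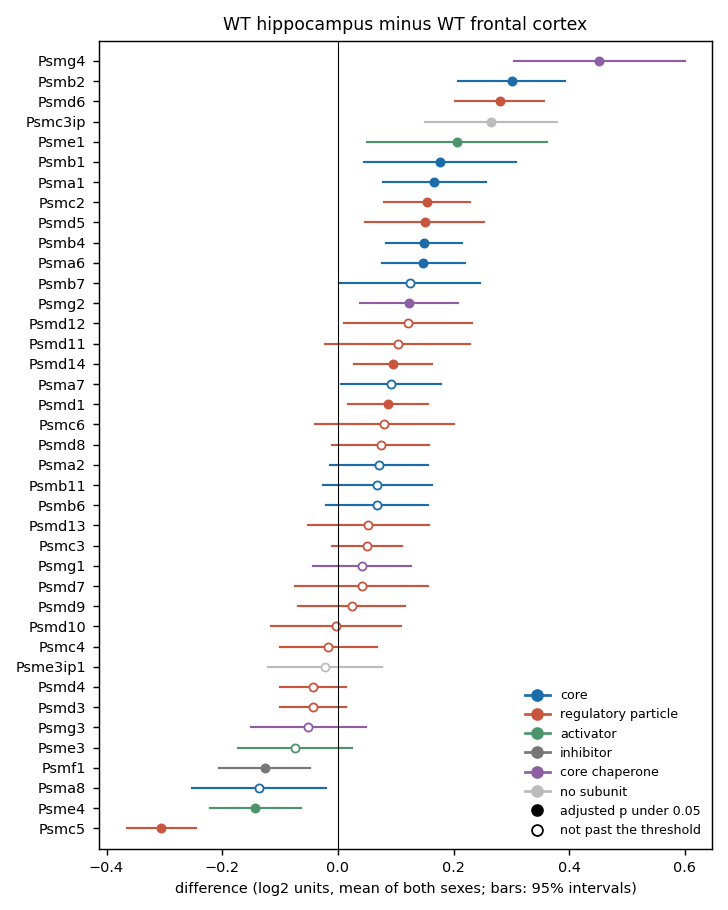
WT hippocampus minus WT frontal cortex for the 39 genes in log2 units, averaged over the sexes, with 95% intervals. Filled points passed an adjusted p under 0.05. Psmg4, Psmb2 and Psmd6 lead at the top and Psmc5 lies lowest.

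Within groups, members were compared by the correlation of their deviations from the group means. This is a description over arrays that share tissue make-up and normalization, and no p is given. Pairs of the 9 core genes other than the tissue forms had a mean correlation of 0.36 over the 28 frontal cortex arrays and of 0.44 over the 30 hippocampus arrays. Pairs within the regulatory particle had 0.24 and 0.24, core with regulatory particle 0.28 and 0.30, and activators with both -0.030 and 0.066. All pairs of genes, dim ones included, averaged 0.0020 and 0.0057, and pairs of brighter genes alone were not examined. Without mice 4 and 7 the hippocampal means were lower within the core (0.27), within the regulatory particle (0.13) and between them (0.15). That of the activators with both was higher, at 0.10. The closest pair was Psmb4 with Psmc2 in the frontal cortex (0.86) and Psma6 with Psmb4 in the hippocampus (0.81, and 0.69 without these mice).

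With all arrays included, a few subunits did not follow the others. The lid gene Psmd3 had a mean correlation of -0.15 and -0.14 with the core and regulatory particle genes in the frontal cortex and hippocampus. Psmc5 had 0.092 and -0.20, and the activator Psme4 had -0.28 and -0.058. Psme1 had -0.0025 and 0.13. The tissue forms Psma8 and Psmb11, whose probe sets are dim, also lay below 0 in both regions. The hippocampal values without mice 4 and 7 were -0.079 for Psmd3, -0.0050 for Psmc5, -0.040 for Psme4, 0.24 for Psme1, -0.083 for Psma8 and 0.010 for Psmb11. The lid gene Psmd14, at 0.21 in the hippocampus with all arrays, was at -0.030 without these mice, below Psmc5.

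**Figure D5:**
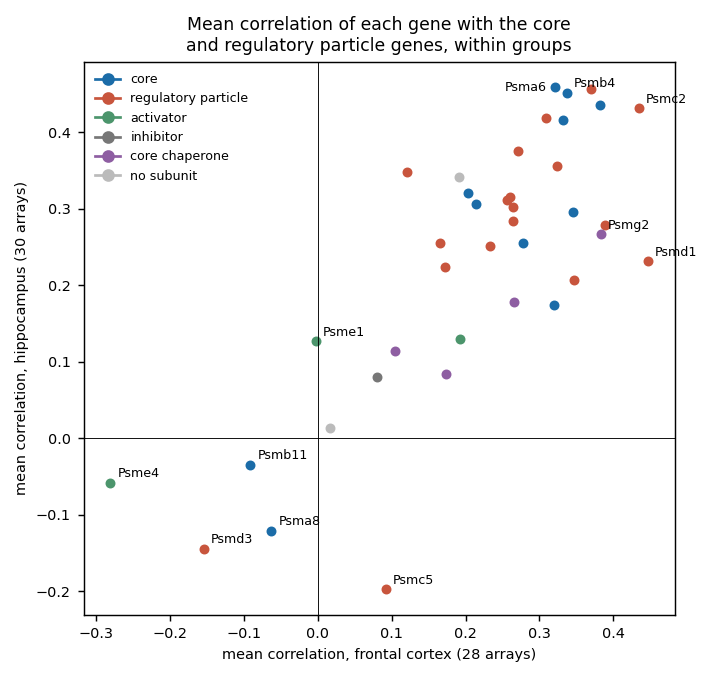
Mean within-group correlation of each of the 39 genes with the core and regulatory particle genes, in the frontal cortex (horizontal) and hippocampus (vertical). Most core and regulatory particle genes lie above 0 on both axes, whereas Psmd3, Psme4, Psma8 and Psmb11 lie below 0 on both. All arrays are included, those of mice 4 and 7 too.

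Other genes of the pathway were described in the frontal cortex TG comparison, from lists drawn up with earlier results of these data known. Their counts stand beside the 18.7% of all genes and 35.2% of brighter genes that fell. The list of ubiquitin and its activation held 8 measured genes, namely the activating enzyme Uba6, conjugating Ube2 enzymes and the hydrolase Uchl1. Of these 7 fell and 1 rose, with a median of -0.17. Uchl1, a ubiquitin hydrolase abundant in neurons, fell by 0.29 (SE 0.057) and the conjugating enzymes Ube2n and Ube2d1 by 0.30 each, while Ube2r2 rose by 0.084. Of 10 proteasome-bound factors 4 fell (median -0.11), among them the deubiquitinase Usp14, by 0.28 (SE 0.056), and the ligase Ube3c, by 0.19. Of 9 genes for shuttles and extraction 4 fell (median -0.12), led by Rad23b at -0.24 (SE 0.062) and Ubqln1 at -0.18 (SE 0.041), which carry ubiquitinated proteins to the proteasome. The counts of 4 in 10 and 4 in 9 lie near the share of brighter genes.

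Of 7 assembly and induction factors 2 rose in the frontal cortex, where 12.9% of all genes and 17.6% of brighter genes rose. Nfe2l2 rose by 1.12 (SE 0.084, adjusted p = 7.02e-12) and its partner Mafg by 0.18 (SE 0.048). Nfe2l1, which restores proteasome genes when proteasomes are blocked, did not pass. In the hippocampus Nfe2l2 rose by 0.46 (SE 0.11, adjusted p = 0.0116), the conjugating enzyme Ube2d1 fell by 0.18 (SE 0.051) and Zfand5, which activates the proteasome, by 0.17 (SE 0.045). These were the only genes of the 4 lists past the test there. Without mice 4 and 7 they differed by 0.40, -0.19 and -0.15 and passed, as did the shuttle gene Ubqln4 at -0.15 (adjusted p = 0.0128).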

How the data were processed

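The authors deposited log2 expression values, 1 per probe set, made with RMA under R 3.2.2, per the submitters' processing notes, with a chip definition file not given in the sources used here. RMA subtracts background, equalizes the distributions of the arrays and summarizes the probes of a set. Of 17856 probe sets 640 had no symbol and 17216 were tested as genes. Values were used as deposited. Group means of the 4 groups of a region, or of all 8 groups, were fitted with lmFit and eBayes in limma 3.58.1 (R 4.3.3), two-sided, with Benjamini-Hochberg adjustment over all genes at 0.05. Figures were drawn with matplotlib 3.10.9 in Python 3.11.15. The fit was tested on simulated data.

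The members, gene lists and alternatives were chosen with earlier results of these data known. Values are given for Psmb6 and Psmb7 with their immune counterparts, for up to 6 members with the largest rise and 6 with the largest fall in each comparison of TG with WT averaged over the sexes and of the WT regions, and for up to 3 of smallest p elsewhere. Up to 4 genes of smallest p are named per list. Further members are given to account for each class and were chosen after their values were seen.

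Mouse numbers, with both regions taken from each mouse per the labels' protocols, pair the arrays of 28 mice. Deviations of a mouse's arrays from the group means correlated from -0.033 to 0.36 (median 0.11), over 0.1 in 15 of 28. The number of arrays limits the precision. The labels say that replicates are biological.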

Additional observations from a re-analysis of the deposited data

Results flagged for a closer look

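Of 208 combinations of 26 named genes and 8 groups, 12 held an array far from the rest of its group by Dixon's criterion, which chance meets in about 1 in 20. In 6 of them the array was of female TG mouse 4. In its hippocampus Psma1 was at 7.99, Psmb4 at 9.77, Psmc6 at 8.47, Psmd5 at 7.26 and Psmd6 at 9.04, each the lowest of its group, and in its frontal cortex Psmb7 was lowest at 8.09. On the same hippocampus array the regulatory particle deviated by -0.27 and the hippocampal marker mean was 6.13. The others were Psmd3 at 8.15 (male TG frontal cortex, mouse 53), Psme1 at 6.19 (female WT hippocampus, mouse 3), Psme3 at 5.45 (male TG hippocampus, mouse 50), Psme4 at 7.59 (male TG hippocampus, mouse 40), Psmg1 at 6.97 (female TG hippocampus, mouse 12) and Psmg4 at 7.05 (female WT hippocampus, mouse 5).

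The effect of the transgenes differed between hippocampus and frontal cortex, by the test of the difference, for Psme1 (-0.39), Psmb4 (0.14), Psmg1 (0.20) and Psmg2 (0.19). The regions come from the same mice, and with the mouse as a fixed block, or under quantile normalization, Psme1 kept its call and the other 3 lost theirs.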

How the results depend on the processing

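Over all comparisons the members had 55 calls, which were refitted 421 times under the alternatives other than leaving out single arrays. Calls were lost in 63 of these fits, and 19 calls were lost in none. In none of these fits, nor without single arrays, was a direction reversed. Counts of members called in the frontal cortex went from 17 to 28 with the sexes averaged, from 12 to 21 in males and from 4 to 8 in females under equal medians, and to 1 in each with the neuron marker mean as a covariate, chosen after seeing the data. Quantile normalization gave 6 in males. Over all genes equal medians turned 1515 higher and 2019 lower into 1182 and 3403 in males and 1507 and 1750 into 1190 and 2804 in females. In the hippocampus the averaged count went from 1 to 0 with the choroid plexus covariate and to 0 without mice 4 and 7, and all-gene calls under equal medians were 137 higher and 108 lower in males (from 179 and 45) and 218 and 234 in females (from 265 and 160). The region difference went from 4 to 1 under quantile normalization and 7 without mice 4 and 7. Mouse as a replicate block, for the paired regions, gave 2 when fixed and 5 when random for the region difference. Over all genes these fits gave 544 higher and 816 lower, and 702 and 839, in place of 489 and 697. For the WT regions they gave 20 and 18 members in place of 17. All genes there stood at 3487 higher and 3421 lower, and 3509 and 3506, in place of 3372 and 3308. The female hippocampus had 1 in place of 0 when random, with 310 of all genes higher and 150 lower, in place of 265 and 160. The block moved no other count by over 1.5 times.

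Leaving out each array gave 13 to 20 calls for the averaged frontal cortex, 6 to 17 for males, 2 to 4 for females, 1 to 1 for the averaged hippocampus, 0 to 1 for the female hippocampus, 14 to 19 for the WT regions and 1 to 9 for the region difference. The male count was 6 without WT mouse 48 or TG mouse 45 and 7 without WT mouse 49 or TG mouse 43, and the female count 2 without WT mouse 2 or 5. The female hippocampus had 1 without TG mouse 12. The region difference was 9 without the hippocampus of TG mouse 4, 1 without the frontal cortex of WT mouse 2 or the hippocampus of TG mouse 8, and 2 without the frontal cortex of TG mice 4, 41, 45 or 53 or WT mouse 5, or the hippocampus of WT mouse 2 or TG mouse 10. The cause was not tested in any of these. Leaving out the frontal cortex array of mouse 51, also chosen after seeing the data, moved no count by over 1.5 times. Dim probe sets limit Psma8, Psmb11 and Psmc3ip, whose signal over background is not known here.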
